A study of Mus musculus with 4 samples.

Results

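The monocyte chemokines and their receptor are described here as 5 genes: the ligands Ccl2, Ccl7, Ccl8 and Ccl12 and the receptor Ccr2. They were taken by gene symbol from a table of 27998 genes, and all 5 were present. The question was which immune cells of brain and glioma carry the ligand transcripts, which carry the receptor transcript, and how both differ between libraries.

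Chemokines are small secreted proteins that bind G protein-coupled receptors and guide cells along a gradient. CCR2 is the receptor that classical monocytes use to leave the bone marrow and enter inflamed tissue, and in brain tumors monocytes that arrive this way can become tumor macrophages. CCL2 (MCP-1), CCL7 (MCP-3) and CCL12 (MCP-5) bind CCR2. In the mouse, CCL8 is known chiefly as a ligand of CCR8. Only transcripts were measured, not secreted protein or receptor at the surface.

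Transcripts of single immune cells from mouse brain were counted in 10x Genomics 3′ droplets, in 4 libraries of 1 group each. The 3 tumor groups carried glioma-005, a glioblastoma line placed in the hippocampus of C57BL/6J mice aged 8 to 12 weeks, with antibodies from day 7 and collection at day 35. The first received anti-CTLA-4 (clone 9H10) together with a CD4-depleting antibody (clone GK1.5) and is called depletion. The second received anti-CTLA-4 alone, the third an isotype IgG (rat IgG2a, clone LTF-2), and the fourth was healthy brain, for which age and treatment are not given in the sources used here. Each tumor library pooled 3 tumors, so a library is 1 value and not a mean over mice. The glioma is 1 cell line, and the tumors of a pool cannot be told apart. In every group 4 fractions were sorted and mixed at equal ratios: CD45int CX3CR1+ microglia, CD45hi cells with CD11b (myeloid) or with CD3 (T cells), and all other immune cells. The sort therefore sets how many cells each class has, and shares of cells between classes say nothing about tissue. Tumor cells, vessels and astrocytes, which can also make CCL2, were not sampled.

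After filtering, 8291 cells remained: 3706 with depletion, 1763 with anti-CTLA-4, 1434 with IgG and 1388 from healthy brain. Median depth was 4359, 5655, 5853 and 5059.5 unique molecular identifiers (UMIs) per cell in the same order. The whole libraries held 21471565, 13428840, 9952379 and 7950206 UMIs in that order. At most 6 cell barcodes were shared by any pair of libraries. With 1 library per group there is no replicate error to judge a difference by, so no p-values are given. Levels are given as CPM, which is a gene's UMIs divided by all UMIs of the summed cells and multiplied by 1000000. All intervals are 95% and cover counting error only. As the UMIs of a gene can sit in few cells, the true error is wider.

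The 4 ligand genes lie side by side on chromosome 11 of mm10, all on the plus strand, within 81.2 kb. Ccl2 (ENSMUSG00000035385) is at chr11:82035571-82037453, Ccl7 (ENSMUSG00000035373) at chr11:82045712-82047525, Ccl12 (ENSMUSG00000035352) at chr11:82101845-82103400 and Ccl8 (ENSMUSG00000009185) at chr11:82115185-82116799, with Ccl11 between Ccl7 and Ccl12. Ccr2 (ENSMUSG00000049103) is at chr9:124101950-124113557. The coding stretch around the paired cysteines that give CC chemokines their name is shown for the 4 ligands, since their resemblance decides whether reads can be told apart. Each stretch is 96 bases of the spliced coding sequence (GENCODE vM21), 5′ to 3′, with the 2 adjacent cysteine codons in capitals.
Ccl2: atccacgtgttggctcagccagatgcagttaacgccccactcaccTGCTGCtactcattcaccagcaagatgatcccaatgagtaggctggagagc
Ccl7: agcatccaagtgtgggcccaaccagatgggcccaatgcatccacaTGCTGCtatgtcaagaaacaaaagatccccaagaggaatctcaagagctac
Ccl8: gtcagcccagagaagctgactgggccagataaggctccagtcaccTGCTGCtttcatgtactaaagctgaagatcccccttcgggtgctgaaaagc
Ccl12: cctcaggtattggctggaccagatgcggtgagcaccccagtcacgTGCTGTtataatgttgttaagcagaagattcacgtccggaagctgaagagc

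Between pairs of ligands, 64.2% (Ccl7 and Ccl8) to 70.5% (Ccl8 and Ccl12) of aligned coding bases were identical. None of the 31-base words of the 4 ligand transcripts occurred in a transcript of another gene, so reads of this length without sequencing errors tell the ligands apart. How the authors' counting treated reads that match several genes is not given in the sources used here.

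The RefSeq promoter table held Ccl8, Ccl12 and Ccr2. The 100 bases before the start of Ccl8 (chr11:82115085-82115184) and Ccl12 (chr11:82101745-82101844), both plus strand of GRCm38.p6, are shown because these neighbouring genes had different patterns below; capitals mark TATAAA.
Ccl8: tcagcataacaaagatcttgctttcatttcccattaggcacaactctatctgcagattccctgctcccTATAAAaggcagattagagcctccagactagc
Ccl12: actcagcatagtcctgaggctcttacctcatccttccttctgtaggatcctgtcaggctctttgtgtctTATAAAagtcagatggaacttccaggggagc

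TATAAA began 32 bases before the start of Ccl8 and 31 bases before that of Ccl12. It was found on either strand in 13.6% of the 32817 promoters of the table, each 300 bases long. The same windows were searched on both strands for TGANTCA (AP-1, 7.81% of all promoters), TTCNNNGAA (GAS, 8.29%) and TTNNGNAA (C/EBP, 40.7%). No such match lay in the Ccl8 or Ccl12 window, and 1 match of TTNNGNAA lay in that of Ccr2.

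Cells were grouped into 24 clusters and named by marker genes. Microglia-like cells were clusters 2, 3, 9 and 21, with 531 cells with depletion, 211 with anti-CTLA-4, 295 with IgG and 796 in healthy brain. Among the 10 genes of highest fold over cells outside the class, these clusters held 8 (P2ry12, Tmem119 and Sall1 among them), 7, 4 and 4 microglia markers in that order. Ccl12 was among those 10 genes in clusters 3, 9 and 21, so a higher level there than in other classes is part of how the clusters formed and is given as description. The same holds for Ccl7 in cluster 3, where it was among the 10 leading genes over all other cells. On that reference clusters 3, 9 and 21 had no microglia marker among their 10 leading genes. Macrophage-like cells were clusters 1 and 7, with 743 cells with depletion, 258 with anti-CTLA-4, 258 with IgG and 7 in healthy brain. Their names rest on 2 macrophage markers each (Arg1 with Ms4a7 or Fn1), beside 1 classical monocyte marker each. The classical monocyte-like cluster 18 held 55, 20, 31 and 48 cells with depletion, anti-CTLA-4, IgG and healthy brain. Over cells outside its class, its 10 leading genes held 1 classical monocyte marker, Gm9733, beside Lyz2 and F13a1. Over cells outside all monocyte and macrophage clusters they held Vcan, Gm9733 and Chil3, beside the macrophage markers Lyz2 and Fn1. On that reference cluster 7 also held Vcan and Chil3, beside Arg1 and Fn1, so the 2 names differ little in markers. Different clusters made up the microglia-like class: cluster 2 held 705 of the 796 healthy cells, cluster 3 held 220 of 295 with IgG and 163 of 211 with anti-CTLA-4, and cluster 9 held 275 of 531 with depletion.

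Among the sampled immune cells, microglia-like cells held most transcripts of Ccl2 and Ccl12 in every library. They also held most of Ccl7, except with anti-CTLA-4, where macrophage-like cells had 34 Ccl7 UMIs and microglia-like cells 33. Of the Ccl12 UMIs of a library, 94.6% lay in microglia-like cells with depletion, 86.5% with anti-CTLA-4, 91.2% with IgG and 99.6% in healthy brain. These cells were 14.3%, 12.0%, 20.6% and 57.3% of the cells in the same order. For Ccl2 the part in microglia-like cells was 64.9% with depletion, 51.4% with anti-CTLA-4, 79.2% with IgG and 91.2% in healthy brain. For Ccl7 it was 74.4% with depletion, 45.2% with anti-CTLA-4 and 82.1% with IgG, and all 6 UMIs of healthy brain. Ccl8 was split otherwise: macrophage-like cells held 53.3% of its UMIs with depletion, 49.3% with anti-CTLA-4 and 89.5% with IgG. The ratios in which the sort was mixed enter all these parts.

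**Figure D1:**
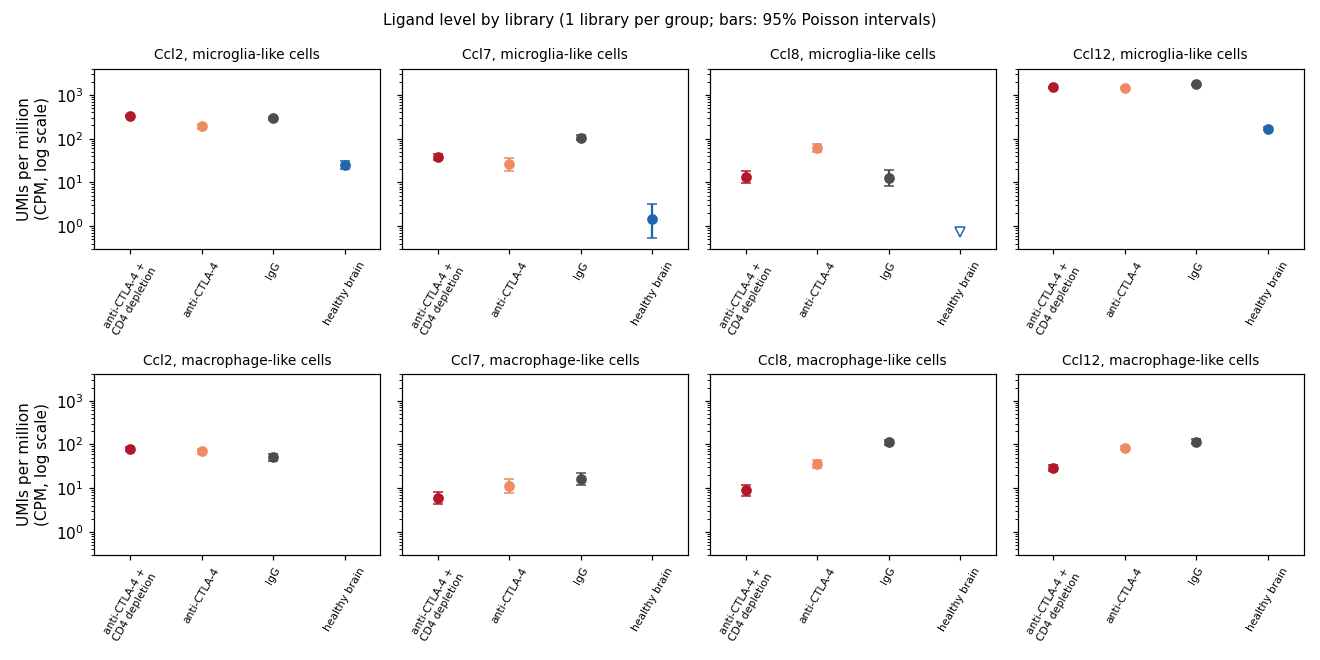
CPM of each ligand (log axis) in microglia-like cells (upper row) and macrophage-like cells (lower row) of each library, with 95% Poisson intervals; healthy brain has too few macrophage-like cells, and the open triangle marks the level of 3 UMIs where none was seen. In microglia-like cells Ccl12 lies above 1400 CPM in the 3 tumor libraries and at 169 CPM in healthy brain.

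Ccl2, the ligand best known for recruiting monocytes, stood at 332 CPM (95% CI 313 to 352) in microglia-like cells with depletion. With anti-CTLA-4 it stood at 194 CPM (171 to 220), with IgG at 295 CPM (271 to 320) and in healthy brain at 24.9 CPM (20.3 to 30.2). All tumor libraries lay above healthy brain, and anti-CTLA-4 was the lowest of them. A Ccl2 UMI was seen in 40.1% of microglia-like cells with depletion, 25.6% with anti-CTLA-4, 36.9% with IgG and 3.52% in healthy brain. After each cell was thinned to 1000 UMIs these shares were 18.5%, 10.3%, 16% and 1.04% in the same order, so the libraries kept their order. Thinning left out 22, 7, 51 and 27 cells. In B-like cells, which should lack these ligands, 0 of 136 cells with depletion, 1.08% with anti-CTLA-4, 1.41% with IgG and 0 of 109 cells in healthy brain had a Ccl2 UMI. Counts of 0 there allow shares of up to 2.21% with depletion and 2.75% in healthy brain. Median depth was 5351 UMIs in microglia-like and 2753.5 in B-like cells with depletion, 5069 and 4990 with anti-CTLA-4, 5675 and 5073 with IgG, and 5158.5 and 3401 in healthy brain. In the 3 tumor libraries the microglia-like share lay far above the B-like share. In healthy brain its interval (2.35 to 5.04%) included the B-like limit, so at these counts it could not be told from the B-like share. Among other classes of healthy brain, 170 neutrophil-like cells had no Ccl2 UMI and 116 cells of T cluster 14 had 1. The 48 classical monocyte-like cells had 7.

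In healthy brain Ccl2 was concentrated in few cells. One microglia-like cell held 39 of its 103 UMIs, and 3 cells held 72.8%. The highest cell held 4.6% of the Ccl2 UMIs with depletion, 13.8% with anti-CTLA-4 and 8.17% with IgG. Most Ccl2-positive healthy cells, 22 of 28, had a single UMI.

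Ccl7, which attracts monocytes and several other leukocytes, was rare in healthy brain, with 6 UMIs in microglia-like cells. It stood at 38.5 CPM (32.2 to 45.7) in microglia-like cells with depletion, 26.0 (17.9 to 36.6) with anti-CTLA-4, 106 (92.3 to 122) with IgG and 1.45 (0.533 to 3.16) in healthy brain. The IgG library stood above the other tumor libraries, with intervals that did not overlap. A Ccl7 UMI was seen in 9.04% of cells with depletion, 7.11% with anti-CTLA-4, 18.3% with IgG and 0.628% in healthy brain. The thinned shares were 2.36%, 2.94%, 6.56% and 0.260% in the same order. No B-like cell of any library had a Ccl7 UMI, but the limit of 2.75% that this allows in healthy brain lies above the microglia-like share there.

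Ccl12, a mouse ligand of CCR2, stood at 1486 CPM (1445 to 1527) in microglia-like cells with depletion, 1419 (1354 to 1486) with anti-CTLA-4 and 1745 (1687 to 1805) with IgG. In healthy brain it stood at 169 CPM (157 to 182). The 3 tumor libraries lay within 1.23-fold of each other and all above healthy brain. A Ccl12 UMI was seen in 79.3% of cells with depletion, 66.8% with anti-CTLA-4, 72.9% with IgG and 28.4% in healthy brain, against 0.735%, 1.62%, 2.82% and 0 of 109 B-like cells. After thinning, the microglia-like shares were 53.0%, 38.7%, 54.9% and 10.1% in the same order. The median positive cell held 6 UMIs with depletion, 5 with anti-CTLA-4, 7 with IgG and 1 in healthy brain.

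Ccl8 was rare, and much of it lay in single cells. In microglia-like cells it stood at 13.5 CPM (9.9 to 18) with depletion, 61.5 (48.6 to 76.8) with anti-CTLA-4 and 12.8 (8.30 to 18.9) with IgG, and no UMI was seen in healthy brain (3 counts would be 0.726 CPM). The share of cells with a UMI was 2.45% with depletion, 3.79% with anti-CTLA-4, 3.73% with IgG and 0 of 796 cells in healthy brain, which allows up to 0.377%. These shares lie close together in the tumor libraries, while the CPM did not. In the anti-CTLA-4 library 1 cell held 51 of the 78 UMIs. B-like cells with a Ccl8 UMI made up 1.62% with anti-CTLA-4, and none were seen in the other 3 libraries. That allows up to 2.21% with depletion and 4.23% with IgG. The exact intervals of the microglia-like and B-like shares overlapped in every tumor library, so the Ccl8 share could not be told from the B-like one at these cell numbers. With depletion, 281 NK-like cells had no Ccl8 UMI and 625 CD8 T-like cells had 1. With IgG, 165 NK-like and 160 regulatory T-like cells had none, while T cluster 10 had 5 UMIs. With anti-CTLA-4, NK-like cells had 8 UMIs and T cluster 10 had 11.

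**Figure D2:**
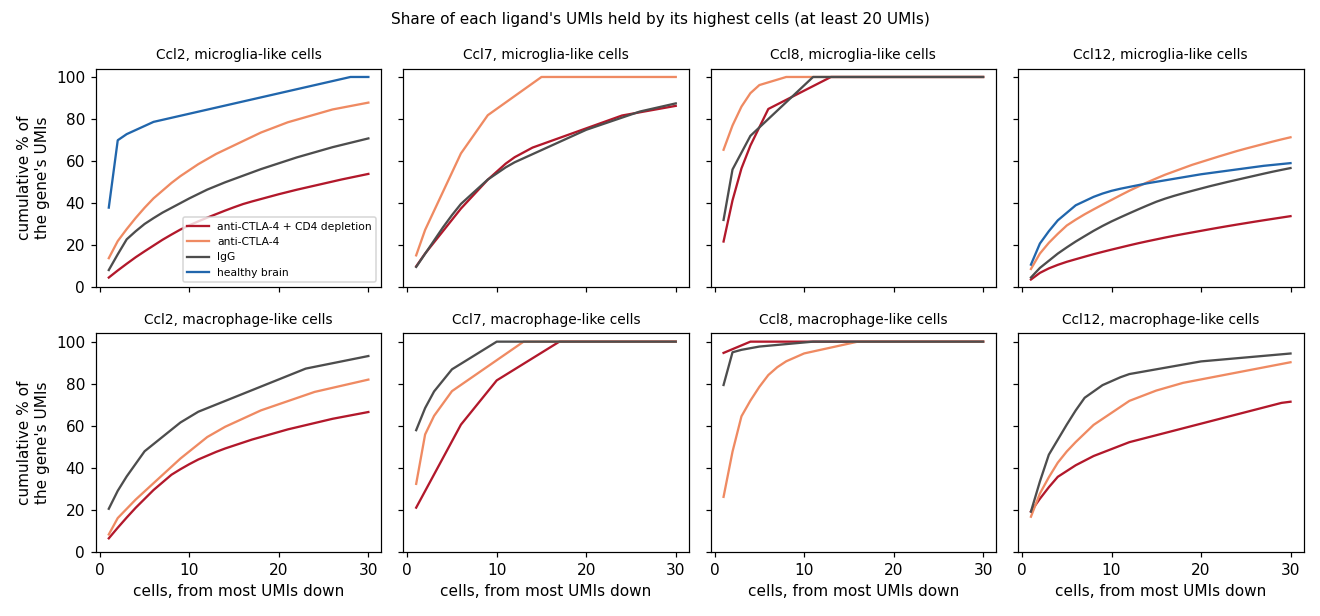
Cumulative percent of a ligand's UMIs (y axis) held by its 30 highest cells (x axis, from most UMIs down) in microglia-like and macrophage-like cells of each library, where at least 20 UMIs were seen. For Ccl8 the highest cell held 65.4% of the UMIs of microglia-like cells with anti-CTLA-4 and 79.4% of those of macrophage-like cells with IgG, while for Ccl12 in microglia-like cells it held 3.66% to 10.7%.

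In macrophage-like cells Ccl2 stood at 79.3 CPM (72.5 to 86.6) with depletion, 69.3 (60.2 to 79.5) with anti-CTLA-4 and 50.9 (42.1 to 61.0) with IgG, with a UMI in 18.8%, 23.6% and 14.7% of cells in the same order. Ccl7 stood at 6.08 CPM with depletion, 11.5 with anti-CTLA-4 and 16.5 with IgG. Ccl12 stood at 29.1 CPM (25.03 to 33.7) with depletion, 82.9 (72.8 to 93.9) with anti-CTLA-4 and 116 (102 to 131) with IgG. Depletion was thus the lowest library for Ccl12 in these cells, and for Ccl2 the intervals of depletion and anti-CTLA-4 overlapped. Ccl8 stood at 8.95 CPM with depletion, 36.2 with anti-CTLA-4 and 112 with IgG, but 1 cell held 53 of 56, 28 of 107 and 204 of 257 UMIs in the same order.

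Other classes held few ligand UMIs. Classical monocyte-like cells had 52 Ccl2 UMIs with depletion (130 CPM, 97.0 to 170), 29 of them in 1 cell, against 6 with anti-CTLA-4, 9 with IgG and 7 in healthy brain. They had at most 7 Ccl12 UMIs and 2 Ccl7 UMIs in any library and none of Ccl8. At least 1 of the 4 ligands was seen in 83.6% of microglia-like cells with depletion, 69.7% with anti-CTLA-4, 78.3% with IgG and 30.4% in healthy brain. In macrophage-like cells this share was 26.1% with depletion, 39.5% with anti-CTLA-4 and 30.6% with IgG. In B-like cells it was 0.735% with depletion, 3.78% with anti-CTLA-4, 4.23% with IgG and 0 of 109 in healthy brain. Some other classes lay higher than B-like cells. The share in T cluster 10 was 8.75% with depletion, 6.71% with anti-CTLA-4 and 13.2% with IgG. In the same order it was 3.68%, 6.61% and 10.3% in CD8 T-like cells and 2.14%, 4.16% and 3.03% in NK-like cells. Type 2 dendritic-like cells had 6.88%, 10.4% and 16.4%.

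Ccl2 and Ccl7 UMIs were often found in the same microglia-like cells. Ccl7 was seen in 20.7% (15.4 to 26.7%) of cells with a Ccl2 UMI and 1.26% (0.344 to 3.19%) of cells without one in the depletion library. The shares were 24.1% and 1.27% with anti-CTLA-4, 33.0% and 9.68% with IgG, and 10.7% (3 of 28 cells) and 0.260% in healthy brain. Cells with a Ccl2 UMI were deeper, with medians of 7092 against 4631 UMIs with depletion, 6487.5 against 4745 with anti-CTLA-4, 7934 against 4508 with IgG and 5854.5 against 5141 in healthy brain. After thinning to 1000 UMIs the Ccl7 shares were 8.51% and 0.964% with depletion, 19.05% and 1.09% with anti-CTLA-4, and 15.4% and 4.88% with IgG. In healthy brain they were 0 of 8 cells and 0.263%, so the pattern was not seen there after thinning. Ccl12 was seen in 89.7% of Ccl2-positive and 72.3% of Ccl2-negative cells with depletion, 90.7% and 58.6% with anti-CTLA-4, and 89.9% and 62.9% with IgG.

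**Figure D3:**
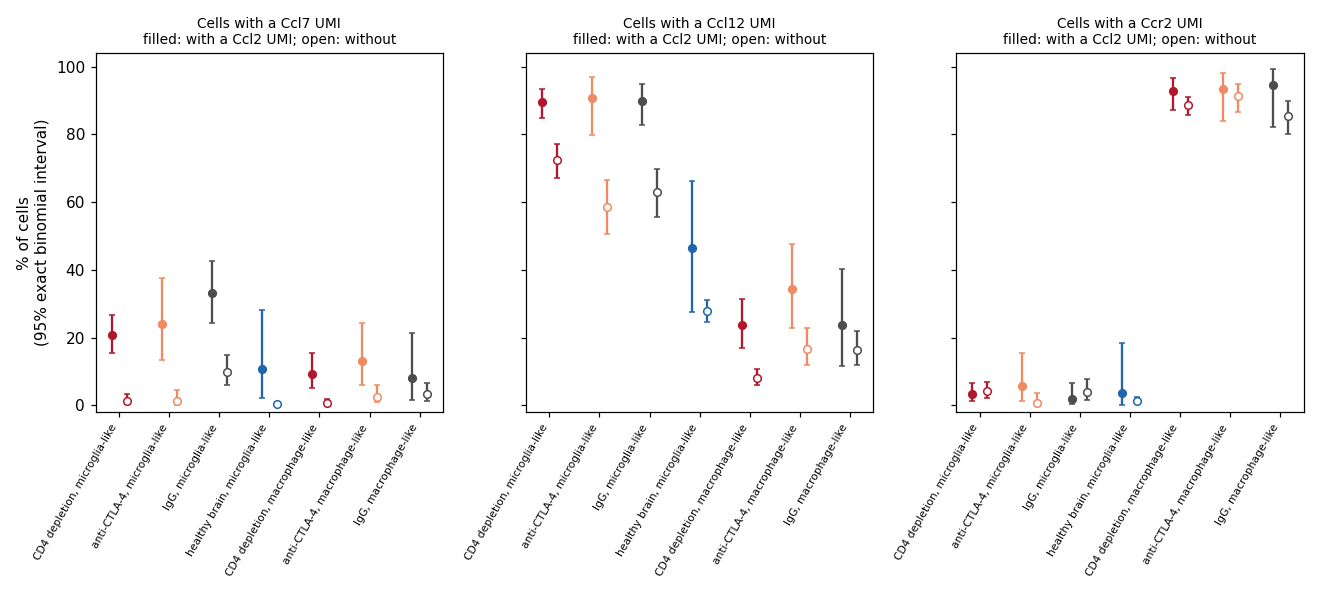
Percent of cells with a Ccl7 (left), Ccl12 (middle) or Ccr2 UMI (right) among cells with (filled) and without (open) a Ccl2 UMI, for microglia-like and macrophage-like cells of each library, with 95% exact binomial intervals. At full depth Ccl7 lies higher in Ccl2-positive microglia-like cells in every library (3 of 28 cells in healthy brain), and Ccr2 lies at 85.5% or more in macrophage-like cells of both kinds.

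In microglia-like cells, IgG stood above healthy brain for all 4 ligands. The ratio of CPM was 11.8 (9.59 to 14.8) for Ccl2, 73.2 (33.1 to 202) for Ccl7 and 10.3 (9.52 to 11.2) for Ccl12. Ccl8 had 25 UMIs with IgG, 8 of them in 1 cell, and 0 in healthy brain. Its IgG level was 17.7-fold that of a floor of 3 UMIs in healthy brain, with no counting error taken on the 25 UMIs. Genes were counted as higher or lower when the CPM ratio was at least 2, with at least 50 UMIs in the pair and detection in at least 10% of the higher library's cells. Ccl2, Ccl7 and Ccl12 met this, against 5.32% of 6414 genes that were higher and 9.67% that were lower. Ccl8 was seen in too few cells to enter. Other settings moved these ratios. The Ccl2 ratio was 17.6 without the highest cell of each library and 18.5 with at least 500 genes per cell, and the Ccl7 ratio was 29.9 in thinned cells and 9.6 within cluster 3 alone. Median-of-ratios size factors placed all genes of this comparison 0.25 higher on the log2 scale.

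Part of that comparison sets different clusters against each other. Within cluster 3 alone the Ccl12 ratio of IgG over healthy brain was 1.81, with 1891 CPM in 220 IgG cells and 1046 CPM in 81 healthy cells. The IgG cells had a median depth of 5977.5 UMIs and the healthy cells one of 1417 UMIs, and 1 of the healthy cells held 75 of their 199 Ccl12 UMIs. Ccl2 in cluster 3 stood at 299 CPM with IgG, against 26.3 CPM (8.53 to 61.3, 5 UMIs) in healthy brain. In cluster 2, which held 705 healthy cells, Ccl12 stood at 108 CPM in healthy brain.

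Markers of other cell types also moved in this comparison. The summed level of the 13 microglia markers was 34466 CPM with IgG and 91759 CPM in healthy brain, with none at 0 UMIs. The 14 monocyte-derived macrophage markers summed to 34810 CPM with IgG (none at 0) and 22224 CPM in healthy brain (Arg1 and Gpnmb at 0). The 10 classical monocyte markers, Ccr2 among them, summed to 190 CPM with IgG (1 at 0 UMIs) and 37.5 CPM in healthy brain (2 at 0). The 5 CD8 T cell markers summed to 1105 CPM with IgG and 9.44 CPM in healthy brain (Gzmk at 0 in both), and the 6 general T cell markers to 33.4 CPM (none at 0) and 3.63 CPM (1 at 0). The dissociation response list, 14 genes induced by enzymes and warmth, summed to 1510 CPM with IgG and 2624 in healthy brain. The part of these in the ligand differences was not tested.

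Genes known to induce or transcribe the ligands were counted at 1.5-fold among genes with at least 50 UMIs in the pair. For IgG over healthy brain, 8.4% of 8543 such genes were higher and 30.3% lower, with a median log2 ratio of -0.32. Of 16 transcription factors, 8 were higher and 4 lower, with a median of 0.57. Among those higher were the interferon mediators Irf7 (102 CPM with IgG, 7.98 in healthy brain), Stat2 (90.3 and 13.8) and Irf1 (155 and 33.1). Of 12 measured inducing cytokines and receptors (of 18), 4 were higher and 3 lower, with a median log2 ratio of 0.05. The cytokines Tnf (50.3 CPM with IgG, 3.39 in healthy brain), Il1b (65.2 and 16) and Csf1 (53.4 and 16) were higher, as was the receptor subunit gene Csf2rb (130 and 61.0). Of other chemokine receptor genes, Ccr1 (10.8 CPM with IgG, 50.3 in healthy brain) and the fractalkine receptor Cx3cr1 (2943 and 6469) were lower. In the chemokine receptor signalling list 5 of 11 were lower and none higher. Of the 3 classical monocyte genes measured, all were higher, Fn1 with the largest ratio (87.3 and 1.21 CPM).

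Between anti-CTLA-4 and IgG, microglia-like cells had less Ccl7. Ccl7 was 4.08-fold lower (2.82 to 6.09), with 33 UMIs in 211 cells with anti-CTLA-4 and 207 UMIs in 295 cells with IgG. It was the 1 ligand past the 2-fold limit, against 0.92% of 6195 genes that were lower and 0.565% that were higher. Ccl2 was 1.52-fold lower (1.31 to 1.77) and Ccl12 1.23-fold lower (1.16 to 1.30). The direction of Ccl7, Ccl2 and Ccl12 was the same under each of the 11 alternative ways of processing, with log2 ratios from -2.17 to -1.40 for Ccl7.

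Ccl8 went the other way in CPM, with a ratio of 4.79 (3.02 to 7.85), and this rested on single cells. Without the highest cell of each library the ratio was 2.47, and with at least 500 genes per cell or with clustering that left out the 5 genes it was 0.545 or 0.702. The share of microglia-like cells with a Ccl8 UMI was 3.79% with anti-CTLA-4 and 3.73% with IgG. In macrophage-like cells the Ccl8 ratio of anti-CTLA-4 over IgG was 0.323 (0.256 to 0.407), and without the highest cell of each library 1.15. No direction for Ccl8 can be read from these libraries in either class.

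**Figure D4:**
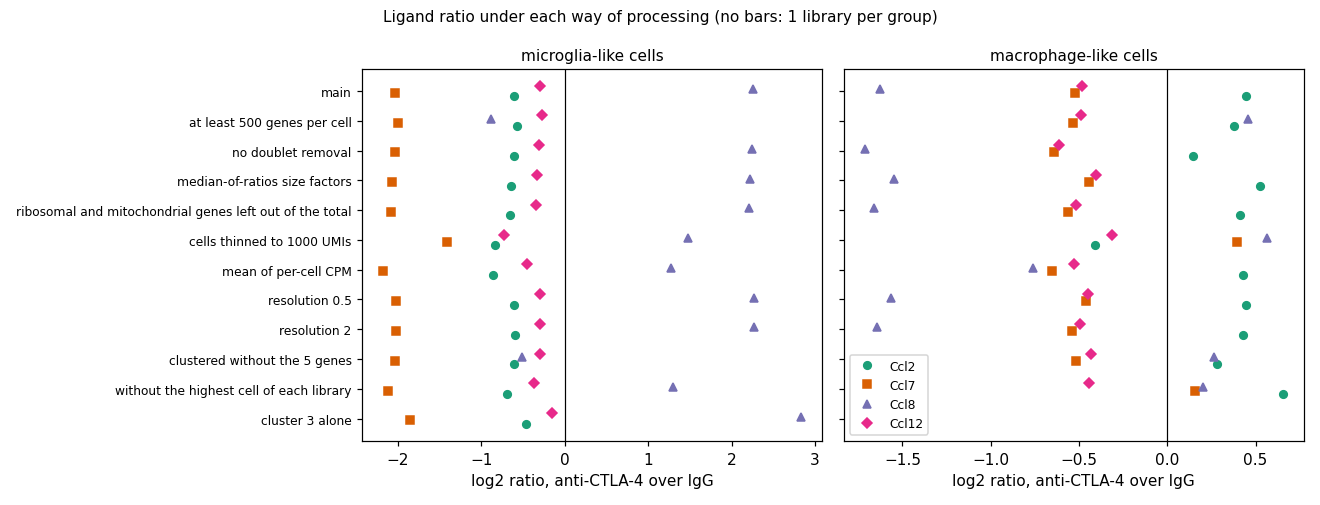
Log2 ratio of CPM, anti-CTLA-4 over IgG (x axis), of each ligand under the main and 11 alternative ways of processing (y axis; cluster 3 alone applies to microglia-like cells), in microglia-like (left) and macrophage-like cells (right). Ccl7, Ccl2 and Ccl12 stay below 0 throughout in microglia-like cells, while Ccl8 lies on both sides of 0 in both classes.

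In macrophage-like cells Ccl2 was 1.36-fold higher with anti-CTLA-4 than with IgG (1.08 to 1.72), but in cells thinned to 1000 UMIs it was 1.33-fold lower. Ccl12 was 1.40-fold lower (1.17 to 1.67), and for Ccl7 the interval included no difference (ratio 0.695, 0.424 to 1.13). No member with enough cells to enter passed the 2-fold limit, against 0.527% of 6641 genes higher and 0.964% lower. Any ligand was seen in 102 of the 258 anti-CTLA-4 macrophage-like cells and in 79 of the 258 IgG cells, at median depths of 10000 UMIs with anti-CTLA-4 and 8819.5 UMIs with IgG. After thinning, 4.3% of anti-CTLA-4 cells and 5.16% of IgG cells had a Ccl2 UMI. Among genes with at least 50 UMIs in the pair, 3.08% of 6972 were at least 1.5-fold higher in these cells and 6.8% lower, with a median log2 ratio of -0.04. None of the 16 transcription factors listed for these genes passed 1.5-fold, and their median log2 ratio was 0.09. Of 11 inducers 1 was lower, the cytokine gene Csf1 (10.5 CPM with anti-CTLA-4, 19.6 with IgG). Of the other chemokine receptor genes Cx3cr1 was lower (250 and 376 CPM), while Ccr1 (323 and 342) stood within 1.5-fold.

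Of the inducers measured in microglia-like cells, 4 of 12 were at least 1.5-fold lower with anti-CTLA-4 than with IgG and none higher. Over 6484 genes 5.04% were lower and 5.61% higher, and the median log2 ratio was 0.15 for the list, opposite in sign to its count, and 0.02 for all genes. Il1b stood at 26.0 CPM with anti-CTLA-4 and 65.2 with IgG, Tnf at 24.5 and 50.3, and Il1a at 41.8 and 78.0, all cytokines that raise chemokine transcription. Of 16 transcription factors 3 were lower and none higher, with Nfkbiz, an atypical NF-kappaB inhibitor family gene, at 14.2 CPM with anti-CTLA-4 and 40.0 with IgG. In the dissociation response 4 of 10 were lower and 1 higher, with Atf3 at 17.4 and 37.0 CPM and Egr1 at 41.0 and 84.7 CPM. The 10 classical monocyte markers summed to 84.4 CPM with anti-CTLA-4 (3 at 0 UMIs) and 190 CPM with IgG (1 at 0). Their part in the Ccl7 difference was not tested.

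Adding CD4 depletion to anti-CTLA-4 went with more Ccl2 in microglia-like cells. Ccl2 was 1.71-fold higher (1.49 to 1.97) in depletion than in anti-CTLA-4 microglia-like cells, and within cluster 3 alone 2.16-fold higher. Ccl7 was 1.48-fold higher (1.003 to 2.24), but 1.07-fold lower in thinned cells and 3.05-fold higher within cluster 3 alone. Ccl12 had a ratio of 1.05 (0.992 to 1.11), or 1.18 with median-of-ratios size factors, which lay 0.18 higher on the log2 scale for all genes of this comparison. Ccl8 was 4.55-fold lower (3.12 to 6.70), or 2.03-fold lower without the highest cell of each library. No ligand that entered passed the 2-fold limit, against 3.49% of 6239 genes higher and 6.48% lower.

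The clusters of this class differed between the libraries. Cluster 9 held 275 cells with depletion, 15 with anti-CTLA-4, 60 with IgG (median depth 814.5 UMIs, against 5080 with depletion) and 10 in healthy brain. In depletion, Ccl2 stood at 519 CPM in the 78 cells of cluster 21, whose leading genes over all other cells are cell cycle genes, at 468 CPM in cluster 3 and at 209 CPM in cluster 9. With anti-CTLA-4 it stood at 217 CPM in cluster 3. The microglia markers summed to 27628 CPM with depletion and 50724 CPM with anti-CTLA-4. The monocyte-derived macrophage markers summed to 39028.5 CPM with depletion, above the microglia markers, and to 33250 CPM with anti-CTLA-4. The list of 10 classical monocyte genes summed to 712 CPM with depletion and 168 CPM with anti-CTLA-4 (Vcan and F10 without a UMI). The part of these in the Ccl2 difference was not tested. The interferon-linked factor Irf1 (58.8 CPM with depletion, 189 with anti-CTLA-4) was lower, while Tnf (89.9 and 24.5) and Nfkbiz (41.1 and 14.2) were higher. Of 15 measured transcription factors 3 were higher and 6 lower, against 11.6% of 7346 genes higher and 18.9% lower.

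In macrophage-like cells Ccl12 was 2.85-fold lower (2.34 to 3.47) with depletion than with anti-CTLA-4. It was the 1 member that entered and passed the 2-fold limit, against 5.66% of 6733 genes lower and 3.25% higher. Ccl8, seen in too few cells to enter, was 4.04-fold lower (2.90 to 5.69), with a UMI in 0.538% of cells with depletion and 6.2% with anti-CTLA-4. The Ccl12 difference was present in cluster 1 alone, with 33.6 CPM of Ccl12 (26.5 to 42.0) with depletion and 82.9 CPM (72.8 to 93.9) with anti-CTLA-4. Cluster 7, which held 456 of the 743 depletion cells and none with anti-CTLA-4, stood at 26.6 CPM of Ccl12. Ccl7 was 1.89-fold lower (1.16 to 3.09), and Ccl2 had a ratio of 1.14 (0.970 to 1.35). Of 16 transcription factors 8 were lower and none higher, Irf1 among them (133 CPM with depletion, 460 with anti-CTLA-4), against 15.5% of 8054 genes lower and 12.7% higher. The 12 neutrophil markers summed in these cells to 4236.5 CPM with depletion (none at 0 UMIs) and 413 CPM with anti-CTLA-4 (3 at 0). The 5 CD8 T cell markers (Cd8a, Cd8b1, Gzmk, Ccl5 and Nkg7) summed to 764 CPM with depletion (1 at 0) and 4262 CPM with anti-CTLA-4 (none at 0). The 6 general T cell markers summed to 17.7 CPM with depletion (1 at 0). Their part in these differences was not tested.

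Most Ccr2 lay in macrophage-like and monocyte-like cells and not in the microglia-like cells that held most Ccl2 and Ccl12. Macrophage-like cells held 74.2% of a library's Ccr2 UMIs with depletion, 58.9% with anti-CTLA-4 and 66.8% with IgG. In healthy brain, which had 7 macrophage-like cells, the 48 classical monocyte-like cells held 63.3%. NK-like cells held 4.21% with depletion, 16.4% with anti-CTLA-4 and 8.34% with IgG.

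Classical monocyte-like and macrophage-like cells had the highest levels. Their intervals overlapped with depletion and with IgG, so their order is not resolved there. Ccr2 marks the classical monocyte class and was on its marker list. There it stood at 984 CPM (889 to 1086) with depletion, 1128 (985 to 1286) with anti-CTLA-4, 1030 (916 to 1156) with IgG and 1013 (925 to 1107) in healthy brain, and the intervals of all 4 libraries overlapped. Macrophage-like cells stood close to these, at 990 CPM (965 to 1015) with depletion, 939 (904 to 974) with anti-CTLA-4 and 1091 (1049 to 1135) with IgG. A UMI was seen in 89.4%, 91.9% and 86.8% of macrophage-like cells in the same order. No cell held more than 1.83% of the UMIs of a library in this class, in contrast to the ligands. Among macrophage-like cells with a Ccl2 UMI, 92.9% with depletion, 93.4% with anti-CTLA-4 and 94.7% with IgG also had a Ccr2 UMI, against 88.6%, 91.4% and 85.5% of those without. In thinned IgG cells the Ccl2 order turned, with Ccr2 in 46.2% of cells with and 50.2% of cells without a Ccl2 UMI. The other ligands differed from Ccl2. Ccr2 was seen in 92.7% of macrophage-like cells with and 89% of those without a Ccl12 UMI with depletion, 81.5% and 94.6% with anti-CTLA-4, and 73.3% and 89.7% with IgG. For Ccl8 the shares were 3 of 4 cells and 89.4% with depletion, 68.8% and 93.4% with anti-CTLA-4, and 27.3% and 89.5% with IgG. For Ccl7 they were 88.2% and 89.4% with depletion, 69.2% and 93.1% with anti-CTLA-4, and 5 of 10 cells and 88.3% with IgG. Thus with anti-CTLA-4 and IgG the cells with a Ccl7, Ccl8 or Ccl12 UMI had a Ccr2 UMI in a lower share than those without, at higher median depth.

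**Figure D5:**
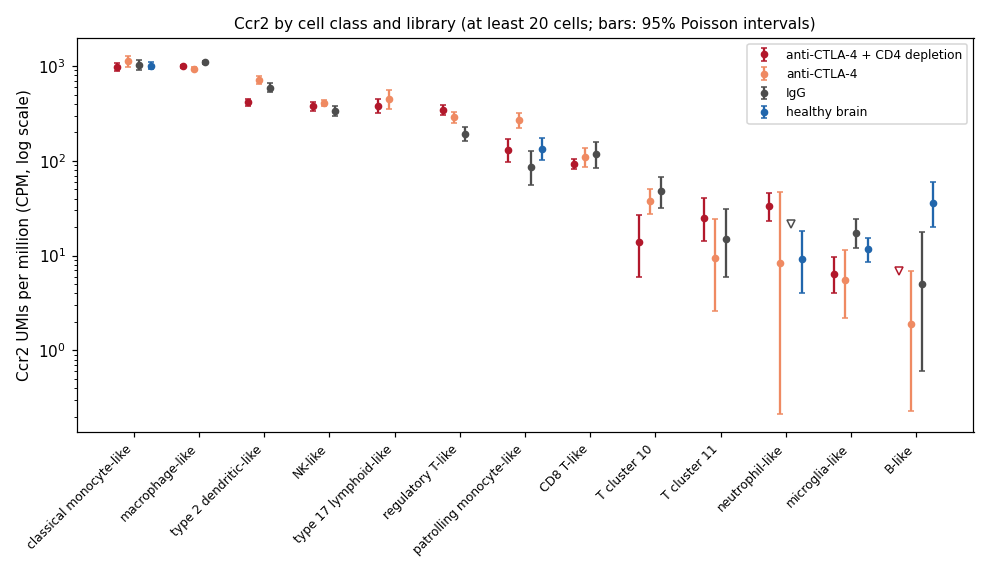
Ccr2 CPM (log axis) by cell class and library, with 95% Poisson intervals, for the classes on the x axis and groups of at least 20 cells; open triangles mark the level of 3 UMIs where none was seen. Classical monocyte-like and macrophage-like cells lie near 1000 CPM, and T clusters 10 and 11, neutrophil-like, microglia-like and B-like cells lie at or below 47.6 CPM in every library shown.

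Type 2 dendritic-like cells came next, with 413 CPM (381 to 448) with depletion, 711 (643 to 784) with anti-CTLA-4 and 590 (526 to 658) with IgG. NK-like cells stood at 376 CPM (337 to 417) with depletion, 406 (378 to 436) with anti-CTLA-4 and 337 (301 to 377) with IgG. Type 17 lymphoid-like cells stood at 383 CPM with depletion and 444 with anti-CTLA-4, in 95 and 30 cells. Regulatory T-like cells stood at 346 CPM (305 to 392) with depletion, 287 (248 to 331) with anti-CTLA-4 and 193 (162 to 227) with IgG. The intervals of type 17 and NK-like cells overlapped, so their order is not resolved.

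Below these came patrolling monocyte-like cells, with 130 CPM (98.3 to 168) with depletion, 267 (223 to 318) with anti-CTLA-4, 85.4 (55.3 to 126) with IgG and 134 (101 to 174) in healthy brain. Patrolling monocytes are known for low CCR2 and high CX3CR1. CD8 T-like cells stood at 93.3 CPM with depletion, 109 with anti-CTLA-4 and 117 with IgG, with overlapping intervals. The unnamed T cluster 10 stood at 13.8 CPM with depletion, 37.7 with anti-CTLA-4 and 47.6 with IgG.

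Microglia, which are not derived from blood monocytes, had little Ccr2. It stood at 6.46 CPM (4.05 to 9.79) in microglia-like cells with depletion, 5.52 (2.22 to 11.4) with anti-CTLA-4, 17.4 (12.1 to 24.4) with IgG and 11.6 (8.56 to 15.4) in healthy brain. One cell held 18 of the 34 UMIs with IgG and 1 cell 25 of 48 in healthy brain. A Ccr2 UMI was seen in 3.77% of microglia-like cells with depletion, 1.90% with anti-CTLA-4, 3.05% with IgG and 1.38% in healthy brain. In B-like cells these shares were 0 of 136 (up to 2.21% allowed), 1.08%, 2.82% and 0.917% in the same order. With anti-CTLA-4, IgG and in healthy brain the intervals of the microglia-like and B-like shares overlapped, so the microglia-like signal could not be told from background. With depletion the microglia-like interval (2.32 to 5.76%) began just above the B-like limit of 3 counts and below the exact upper bound of 2.68%.

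In macrophage-like cells, which held most Ccr2 of the tumor libraries, its ratios between libraries lay nearer to 1 than those of the ligands. The ratio was 0.860 (0.815 to 0.908) for anti-CTLA-4 over IgG and 1.05 (1.01 to 1.10) for depletion over anti-CTLA-4. Depletion cells of cluster 1 stood at 1131 CPM and those of cluster 7 at 910 CPM. The depletion over anti-CTLA-4 difference in macrophage-like cells was 0.08 on the log2 scale, and turned to -0.034 when per-cell CPM were averaged. In NK-like cells Ccr2 had a ratio of 1.21 (1.06 to 1.38) for anti-CTLA-4 over IgG, where 0.888% of 5292 genes were at least 2-fold higher and 0.529% lower. For depletion over anti-CTLA-4 the ratio was 0.925 (0.813 to 1.05), where 0.26% of 4621 genes were at least 2-fold higher and 1.8% lower.

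Regulatory T-like cells had 1.49-fold more Ccr2 (1.2 to 1.86) with anti-CTLA-4 than with IgG, in 41.4% and 32.5% of cells. This did not reach the 2-fold limit, which 0.503% of 3577 genes passed as higher and 0.419% as lower, and in thinned cells the ratio was 0.993. For depletion over anti-CTLA-4 the ratio was 1.2 (0.995 to 1.46), where 1.83% of 3488 genes were at least 2-fold higher and 2.47% lower. When T cells were instead taken by a Foxp3 UMI, the factor that defines regulatory T cells, Ccr2 stood at 346 CPM (301 to 397) with depletion, 362 (312 to 418) with anti-CTLA-4 and 215 (178 to 256) with IgG, in 141, 100 and 115 cells. In the depletion library 73 of these 141 cells also had a Cd8a or Cd8b1 UMI. Those stood at 371 CPM (310 to 441) and the 68 without at 311 CPM (246 to 389), with overlapping intervals.

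In patrolling monocyte-like cells Ccr2 passed the 2-fold limit in both comparisons between tumor libraries. The ratio was 3.13 (2.03 to 5.02) for anti-CTLA-4 over IgG, where 1.43% of 2307 genes passed as higher and 0.303% as lower. It fell under the limit with at least 500 genes per cell (1.63), without doublet removal (1.36), in thinned cells (1.35) and at clustering resolution 2 (1.96). For depletion over anti-CTLA-4 Ccr2 was 2.06-fold lower (1.5 to 2.87), where 1.45% of 2691 genes passed as higher and 1.86% as lower. That difference was 3.05-fold in thinned cells, but 1.62-fold to 1.92-fold under 6 of the other alternatives. The share of cells with a UMI was 25% with depletion, 30.3% with anti-CTLA-4, 21.2% with IgG and 25.3% in healthy brain, with overlapping intervals. With anti-CTLA-4, 3 of 66 cells held 46.0% of the UMIs. For IgG over healthy brain the ratio was 0.636 (0.38 to 1.04), where 1.23% of 2188 genes passed as higher and 1.87% as lower, and without doublet removal it was 2.06. In T cluster 10 Ccr2 was 2.73-fold lower (1.28 to 6.72) with depletion than with anti-CTLA-4, from 8 and 45 UMIs, where 0.693% of 3895 genes passed as higher and 3.83% as lower.

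Across the 38 groups of 1 class in 1 library with at least 50 cells, Ccl2, Ccl7 and Ccl12 followed each other more closely than they followed Ccr2. On log2(CPM + 5), Pearson's r was 0.84 between Ccl2 and Ccl7, 0.84 between Ccl2 and Ccl12 and 0.88 between Ccl7 and Ccl12. For Ccl8 it was 0.63 with Ccl2, 0.69 with Ccl7 and 0.68 with Ccl12. With Ccr2 it lay between -0.13 (Ccl12) and 0.15 (Ccl2). Of 9632 genes, the 5 most like Ccl12 were the complement genes C1qc (r = 0.94), C1qb and C1qa, with Hebp1 and Mmp2. Among those most like Ccl2 were C3ar1, a complement receptor gene, Adap2, Rrbp1 and Ntpcr. Those most like Ccl7 were Cp (0.91), which encodes ceruloplasmin, Fblim1, Vcam1, C4b and Ccl12. For Ccl8 they were Cxcl9 (0.79), an interferon-induced chemokine gene, Zmynd15, Cfb, Ms4a7 and Il18bp, and for Ccr2 Esd (0.83), Chmp4b, Fam129b, S100a4 and Ahnak. These groups share libraries, depth and the clustering, so the correlations only describe which classes the genes have in common.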

How the data were processed

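UMI counts were deposited raw by the authors, 1 matrix of genes by barcodes per library, made with Cell Ranger 3.1.0 against mm10, per the file headers and the labels. The annotation release and read settings are not given in the sources used here. Barcodes were kept from 200 detected genes upward and up to 10% of UMIs from mitochondrial genes. Scrublet scored doublets per library (expected rate 0.05). Its threshold was used where it marked at least 0.5% of barcodes, a limit chosen after seeing the data, and removed 10 with IgG and 12 in healthy brain. Elsewhere barcodes above the 95th percentile of the score were removed, 169 with depletion and 90 with anti-CTLA-4. Leiden clustering at resolution 1 (scanpy 1.11.5, leidenalg 0.10.2) used 2000 variable genes after scaling to 10000 per cell, 30 principal components and 15 neighbours, with no integration. It gave 24 clusters. These settings follow an earlier analysis of the same data, and the members, gene lists and comparisons were chosen with its results known.

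Clusters were called like a cell type from markers among their 10 leading genes by fold, with 27 marker lists. The names are likenesses in transcripts and could differ from the study's own. B-like cells (cluster 5) also led with hemoglobin genes. Classes were compared where both libraries had at least 50 cells. Intervals are exact Poisson for levels, Clopper-Pearson for shares and conditional binomial for ratios, and the floor is 3 counts per library. Named genes are the 5 members, the largest ratios of each list, and the 5 genes most like each member among those with at least 200 UMIs; a few genes these rules name are not reported here. Each ratio was recomputed with a stricter gene minimum (500), with doublets kept, with other denominators (median-of-ratios size factors; no ribosomal or mitochondrial genes), with every cell thinned to 1000 UMIs, with per-cell CPM averaged, and at resolutions 0.5 and 2. Counts of genes were also taken at 1.5-fold and from 20 UMIs without a share limit. Clustering without the 5 genes, leaving out the highest cell, and cluster 3 alone were added after seeing the data. The ratio and its interval were tested on simulated data. Coordinates and coding sequences are from GENCODE vM21 on mm10, promoters from RefSeq on GRCm38.p6.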

Additional observations from a re-analysis of the deposited data

Results flagged for a closer look

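Some genes had ratios whose counting intervals lay on opposite sides of 1 in different classes of the same comparison. They were picked by this rule, which was chosen after seeing the data; the difference between the classes was not itself tested, and each class is 1 library per group. For anti-CTLA-4 over IgG, Ccl2 had a ratio of 1.36 in macrophage-like cells and 0.657 in microglia-like cells, but in thinned macrophage-like cells the log2 ratio turned to -0.41. Ccl8 had 4.79 in microglia-like and 0.323 in macrophage-like cells, both resting on single cells. Ccr2 had 3.13 in patrolling monocyte-like, 1.49 in regulatory T-like and 1.21 in NK-like cells, against 0.860 in macrophage-like cells, and the thinned log2 ratio in regulatory T-like cells was -0.011. For depletion over anti-CTLA-4, Ccl7 had 1.48 in microglia-like and 0.528 in macrophage-like cells, and the thinned log2 ratio in microglia-like cells was -0.10. Ccr2 had 1.05 in macrophage-like cells, against 0.485 in patrolling monocyte-like cells and 0.366 in T cluster 10.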

How the results depend on the processing

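Of 379 values that 38 ratios took under alternatives, 303 stayed within the counting interval of the main ratio, 65 moved beyond it and 11 turned direction (counted only for ratios whose interval left out 1). All values here are log2 ratios of CPM, and the cause of a change was not tested. For IgG over healthy brain in microglia-like cells, the main values were 3.57 for Ccl2, 6.19 for Ccl7 and 3.37 for Ccl12. With at least 500 genes per cell Ccl2 was 4.21 and Ccl12 3.51. Ccl12 was 3.62 with median-of-ratios size factors and 3.49 with ribosomal and mitochondrial genes left out. Thinning to 1000 UMIs gave 3.89 for Ccl2 and 4.90 for Ccl7, and the mean of per-cell CPM 4.10 for Ccl2. For anti-CTLA-4 over IgG in microglia-like cells (main -0.61 for Ccl2, -2.03 for Ccl7, 2.26 for Ccl8, -0.30 for Ccl12), thinning gave -0.83, -1.40, 1.48 and -0.72 in that order and turned Ccr2 to 0.26. The mean of per-cell CPM gave -0.86 for Ccl2, 1.28 for Ccl8 and -0.46 for Ccl12, and a minimum of 500 genes turned Ccl8 to -0.88. In microglia-like cells, for depletion over anti-CTLA-4 (main 0.78 for Ccl2, 0.56 for Ccl7, -2.19 for Ccl8, 0.07 for Ccl12), thinning gave 1.13 for Ccl2, turned Ccl7 to -0.10 and gave 0.54 for Ccl12. The mean of per-cell CPM gave 1.12 for Ccl2 and 0.29 for Ccl12. Ccl12 was 0.24 with median-of-ratios size factors and 0.20 without ribosomal and mitochondrial genes. In macrophage-like cells, Ccl8 for anti-CTLA-4 over IgG turned to 0.46 with at least 500 genes and to 0.56 after thinning, and Ccl2 turned to -0.41 after thinning. Ccr2 in these cells was -0.14 for anti-CTLA-4 over IgG with median-of-ratios size factors and -0.090 after thinning. For depletion over anti-CTLA-4 it was 0.16 with those size factors, 0.17 without ribosomal and mitochondrial genes, and turned to -0.034 as a mean of per-cell CPM. Thinned Ccr2 for anti-CTLA-4 over IgG was 0.029 in NK-like cells and turned to -0.011 in regulatory T-like cells. The 3 other alternatives were chosen after seeing the data. Clustering without the 5 genes gave, in microglia-like cells, 4.21 for Ccl2 and 3.51 for Ccl12 (IgG over healthy brain), turned Ccl8 for anti-CTLA-4 over IgG to -0.51, and in macrophage-like cells to 0.26. Leaving out the highest cell of each library gave 4.13 for Ccl2 (IgG over healthy brain), 1.30 for Ccl8 (anti-CTLA-4 over IgG) and -1.02 (depletion over anti-CTLA-4) in microglia-like cells, and turned Ccl8 for anti-CTLA-4 over IgG to 0.20 in macrophage-like cells. Cluster 3 alone gave 3.26 for Ccl7 and 0.85 for Ccl12 (IgG over healthy brain) and -0.16 for Ccl12 (anti-CTLA-4 over IgG). For depletion over anti-CTLA-4 it gave 1.11 for Ccl2, 1.61 for Ccl7, -1.58 for Ccl8 and 0.22 for Ccl12. Counts of genes past the limit were within 1.5 times of the main count in 271 of 452 cases. No paired analysis was possible because each group is 1 library. Low depth limits Ccl7 in healthy brain (6 UMIs) and Ccr2 in microglia-like cells (7 to 48 UMIs).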
